A study of Mus musculus with 40 samples.

Results

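The annexins on these arrays were followed through 10 genes, *Anxa1*, *Anxa2*, *Anxa3*, *Anxa4*, *Anxa5*, *Anxa6*, *Anxa7*, *Anxa9*, *Anxa11* and *Anxa13*, chosen by gene name among the 36362 names that the arrays carry. They were measured by 13 of 55589 probes, with a pair of probes each for *Anxa1*, *Anxa7* and *Anxa11*. RNA from the cerebral cortex and the cerebellum of C57Bl/6 mice was hybridised to 40 Agilent 1-colour arrays, 4 for each of 10 groups. Both regions were sampled from 5 kinds of mice. Young mice (wild type, 2 months of age) and aged controls (wild type, 29 months of age) ate a normal diet holding 36 mg of α-tocopherol/kg. Deficient wild type stands for wild-type mice of 29 months kept on an α-tocopherol-deficient diet, deficient *Ttpa*-/- for mutants of that age kept likewise, and supplemented *Ttpa*-/- for mutants of that age given 600 mg/kg. No mutant ate the normal diet, no wild type was supplemented, and no young mutant was studied. α-Tocopherol is the main form of vitamin E, and *Ttpa* encodes the liver protein that loads it into the circulation, so the mutants have very little of it unless it is supplied in excess. The family was picked because a rise of *Anxa13* in the deficient *Ttpa*-/- cortex was already known, so its values in that contrast are a description and support nothing.

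Annexins are proteins that bind acidic phospholipids in the presence of calcium, through a core of repeated domains shared by the family, while their N-terminal ends differ and carry the binding sites for partners. They take part in membrane repair, vesicle traffic and inflammation. In brain, *Anxa1* and *Anxa3* are known from microglia, *Anxa2* from vessels and reactive glia, and *Anxa5* and *Anxa6* from a wide range of cells. Bulk tissue was measured, so fewer cells of a type and less RNA per cell cannot be told apart.

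Levels are log2 signals relative to the 75th percentile of the array, so 0 is the level of that percentile, and they are compared within a probe and not between probes. A gene was called changed when its fold change was over 1.5 and its limma adjusted p was under 0.05. The probes of *Anxa1*, *Anxa2*, *Anxa3*, *Anxa4*, *Anxa5*, *Anxa6* and *Anxa7*, and the brighter probe of *Anxa11*, were well above background on 40 of 40 arrays. The *Anxa9* probe was so on 26 arrays, the dimmer *Anxa11* probe on 22 and the *Anxa13* probe on 12. The target sequences of the *Anxa13* and *Anxa3* probes are given because each of these genes rests on a single 60-base probe, without capitals since the whole of it is the target.
Anxa13 probe, chr15:58173475-58173534 on mm9, minus strand: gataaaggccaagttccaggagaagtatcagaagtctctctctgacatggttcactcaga
Anxa3 probe, chr5:97253925-97253984 on mm9, plus strand: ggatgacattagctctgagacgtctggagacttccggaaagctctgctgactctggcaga
Each of these holds 1 reading frame without a stop codon. On mm9 the other probes used for a gene lie at chr19:20447938-20447997 for *Anxa1*, chr9:69339532-69339591 for *Anxa2*, chr6:86686883-86686942 for *Anxa4*, chr3:36348065-36348124 for *Anxa5*, chr11:54792616-54792675 for *Anxa6*, chr14:21275441-21275500 for *Anxa7*, chr3:95100039-95100098 for *Anxa9* and chr14:26706231-26706290 for *Anxa11*. The transcript named for each of the 13 probes carries the same gene symbol in the RefSeq annotation.

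The promoters of *Anxa1*, *Anxa2* and *Anxa11* are shown as examples of genes that moved with age or differed between regions. *Anxa4*, called with age, and *Anxa7*, whose dimmer probe was called between regions, have promoters too, which are not shown. They run from 250 bases before to 50 bases after the transcript start in RefSeq on GRCm38.p6, written 5′ to 3′ along the gene, and capitals mark the motifs found. Of the 10 genes, 7 had such a sequence, with 10 promoters in all.
Anxa1, chr19:20390622-20390921 on GRCm38.p6, minus strand: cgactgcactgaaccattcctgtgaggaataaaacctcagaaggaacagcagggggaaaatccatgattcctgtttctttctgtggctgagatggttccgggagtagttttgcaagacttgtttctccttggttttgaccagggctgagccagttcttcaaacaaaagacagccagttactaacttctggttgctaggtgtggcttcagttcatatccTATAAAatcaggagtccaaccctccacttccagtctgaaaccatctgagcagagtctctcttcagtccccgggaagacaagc
Anxa2, chr9:69453433-69453732 on GRCm38.p6, plus strand: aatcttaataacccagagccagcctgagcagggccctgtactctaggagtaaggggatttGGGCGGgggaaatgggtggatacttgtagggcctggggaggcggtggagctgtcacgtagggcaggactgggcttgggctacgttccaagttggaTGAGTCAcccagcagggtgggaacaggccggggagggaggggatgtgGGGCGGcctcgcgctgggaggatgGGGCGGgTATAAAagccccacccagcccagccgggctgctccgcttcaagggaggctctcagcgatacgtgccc
Anxa11, chr14:25841905-25842204 on GRCm38.p6, plus strand: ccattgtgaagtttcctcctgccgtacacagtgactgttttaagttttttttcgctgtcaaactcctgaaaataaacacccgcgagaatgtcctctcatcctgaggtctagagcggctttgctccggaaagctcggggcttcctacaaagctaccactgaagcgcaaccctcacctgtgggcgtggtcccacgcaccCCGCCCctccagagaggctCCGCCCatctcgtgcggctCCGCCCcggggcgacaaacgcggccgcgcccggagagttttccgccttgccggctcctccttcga
On both strands, general promoter elements were searched as TATAAA for the TATA box, as CCAAT for the box of that name, and as GGGCGG for the GC box. Sites of inducible factors were searched as TGANTCA for AP-1, as TGACNNNGC for the core of the antioxidant response element, as GAGGAAGT for PU.1, and by the full palindrome of the glucocorticoid response element. No matches overlapped in the 3 sequences. The *Anxa1* promoter held TATAAA from -32 to -27 and none of the others. The *Anxa2* promoter held TATAAA from -17 to -12, GGGCGG at 3 places and TGANTCA from -95 to -89. The *Anxa11* promoter held GGGCGG at 3 places on the opposite strand and no TATAAA. Among 32841 mouse promoters of this length, 13.6% held TATAAA, 37.4% CCAAT, 35.7% GGGCGG, 7.81% TGANTCA, 12.4% TGACNNNGC, 3.2% GAGGAAGT and 0.00913% the glucocorticoid palindrome. Of the 10 annexin promoters, 2 held TATAAA, 5 GGGCGG, 1 TGANTCA, 3 TGACNNNGC, and 0 each of the other motifs. The TGACNNNGC matches lay in promoters of *Anxa4*, *Anxa7* and *Anxa9*, which are not shown. These matches are letters in a window and not evidence of binding.

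Scanner intensities at the 75th percentile ranged from 365 to 925 between arrays, and arrays of a group correlated at 0.973 to 0.993. A *Ttpa* probe was well above background on 4 of 4 arrays of each wild-type cerebellar group, with means of -3.78 to -3.01, and on 0 of 4 cerebellar arrays of deficient and 1 of 4 of supplemented *Ttpa*-/- mice. In the cortex it was near background in every group, so the genotype could be read from *Ttpa* in the cerebellum only. A second *Ttpa* probe was well above background on 1 of 40 arrays, from a deficient *Ttpa*-/- cerebellum (-2.67), and on no wild-type array. Markers of cerebellar neurons were lower in the cortex (5 of 5 genes) and those of cortical neurons higher (4 of 4). The groups of cortical ageing shared a slide, as did the diet groups of the wild type and of the *Ttpa*-/- mice in the cerebellum. Choroid plexus markers varied widely within groups, from -1.83 to 2.34 in the young cortex. In most other comparisons of age, diet, genotype or region, slide and condition cannot be told apart.

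**Figure D1:**
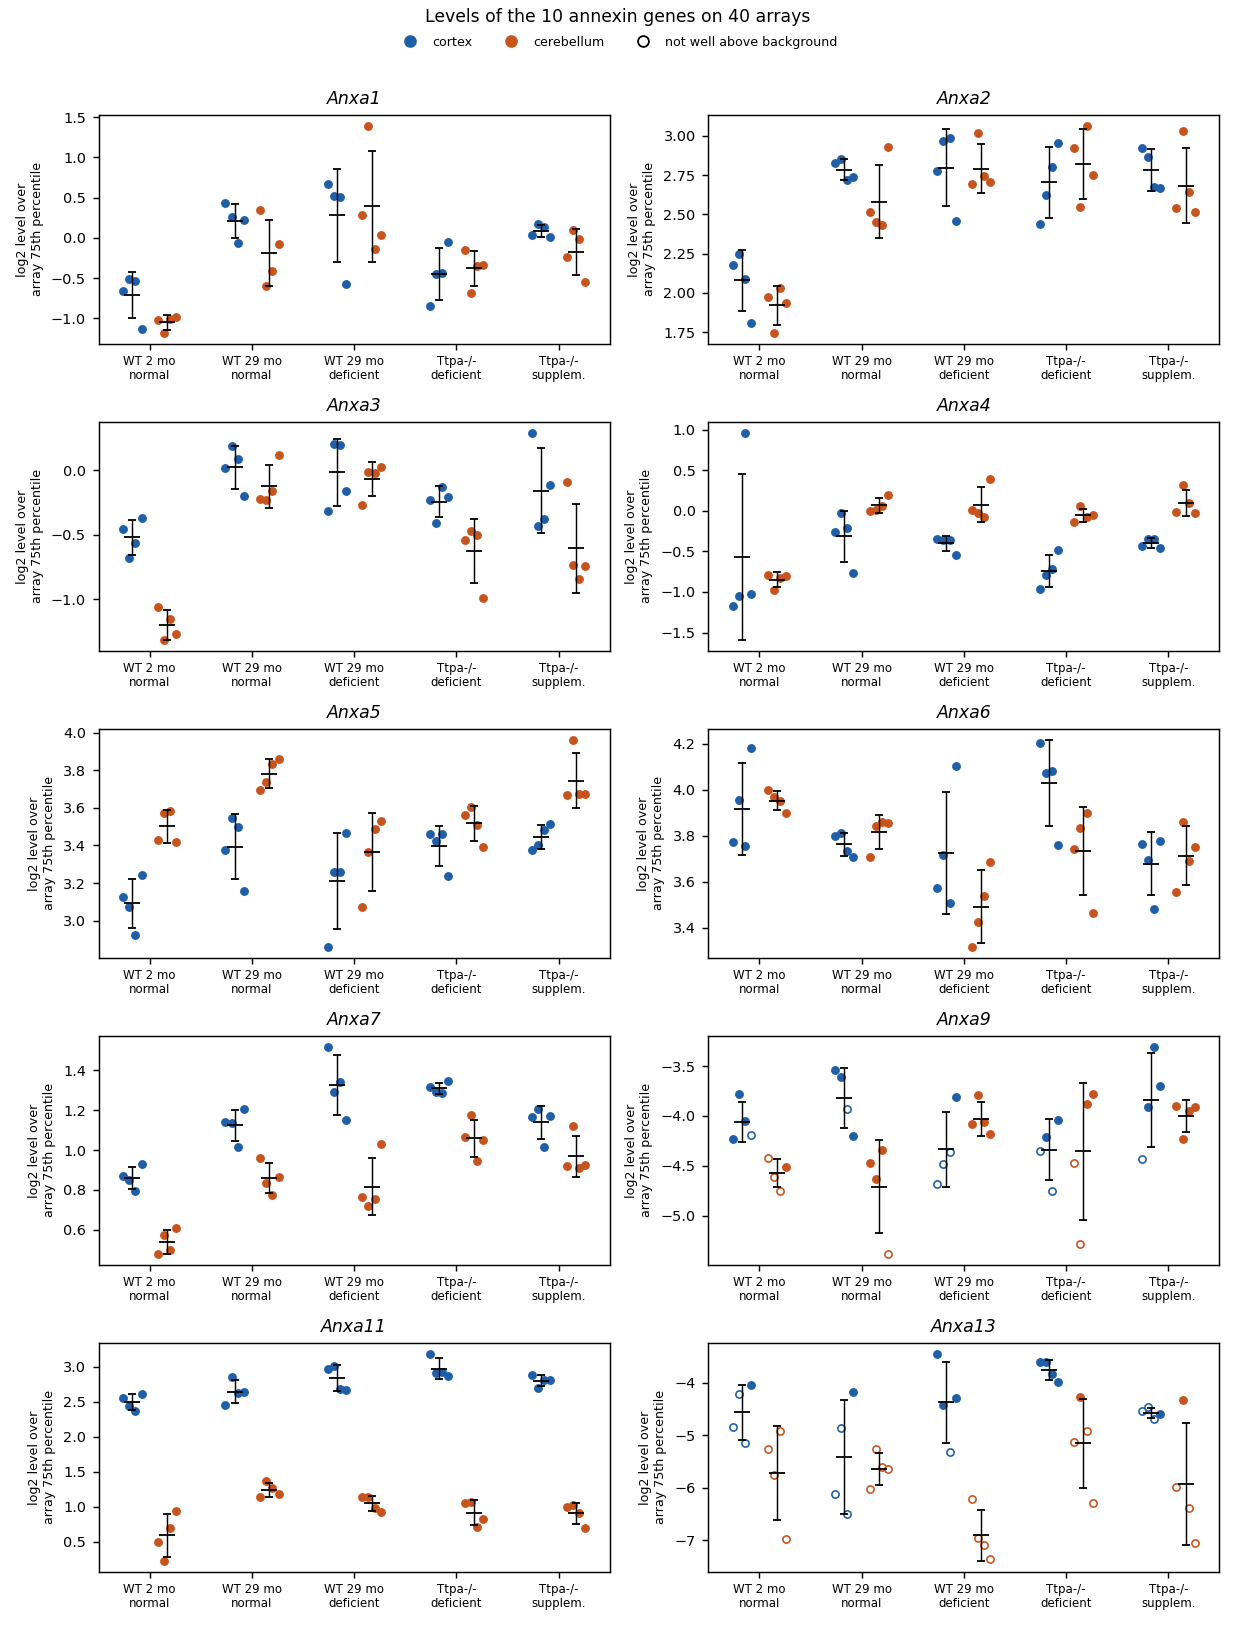
Log2 level relative to the array's 75th percentile (y axis) of the 10 annexin genes by group (x axis), with a point for each of 40 arrays, open where the probe was not well above background, and bars for the mean ± SD of the 4 arrays. *Anxa2* is lowest in the young mice of both regions, *Anxa11* is split by region, and one young cortical array stands at 0.97 for *Anxa4*.

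The comparison of aged controls with young mice asked what changes with age. In the cortex 2 of 10 tested annexin probes were called, where 2.09% of all tested probes were called, and in the cerebellum 5 of 10, where 5.03% were. All these calls were rises, and 1.59% and 3.99% of all tested probes were called higher. Aged and young arrays did not overlap for 5 and 10 of the 10 tested annexin probes, against 14% and 19.1% of all. Among these, *Anxa6* was lower in the aged cerebellum and the others were higher in aged mice. *Anxa7* entered with a pair of probes in both regions. *Anxa1* did so in the cerebellum only, since its dimmer probe overlapped between the ages in the cortex. The cerebellar age groups lay on different slides, so slide and age cannot be told apart there. In both regions *Anxa1* and *Anxa2* rose, and in the cerebellum *Anxa3*, *Anxa4* and *Anxa11* rose too. Over the 10 genes, with *Anxa9* and *Anxa13* included though too dim to be tested, the median log2 difference was 0.26 in the cortex and 0.48 in the cerebellum, with 8 of 10 above 0 in each region, against medians of -0.025 and -0.010 over all tested probes.

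*Anxa1* encodes annexin A1, a glucocorticoid-induced protein that restrains phospholipase A2 and signals through formyl peptide receptors. In the cortex its levels were -0.66, -0.51, -0.54 and -1.14 in young mice and 0.43, 0.26, -0.068 and 0.22 in aged mice, a rise of 0.92 ± 0.26 (SE, adjusted p = 0.0327). In the cerebellum they were -1.02, -1.19, -1.01 and -0.98 in young mice and 0.34, -0.60, -0.41 and -0.079 in aged mice, a rise of 0.86 ± 0.26 (adjusted p = 0.0251). Every aged array stood above every young array in both regions. The dimmer *Anxa1* probe differed by 0.81 ± 0.34 in the cortex and 0.96 ± 0.34 in the cerebellum, without passing the threshold (adjusted p = 0.217 and 0.0609). The *Anxa1* calls were fragile: leaving out single arrays lowered the difference to as little as 0.78 in the cortex and 0.68 in the cerebellum, and the call was lost for 5 of 8 arrays in the cortex (aged replicates 1, 2 and 4, young replicates 1 and 4) and for 4 of 8 in the cerebellum (aged replicates 1 and 4, young replicates 1 and 2).

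*Anxa2* encodes annexin A2, which with S100a10 forms a complex at the plasma membrane that binds plasminogen and its activator. Its levels in the cortex were 2.18, 2.25, 2.09 and 1.81 in young and 2.83, 2.85, 2.72 and 2.74 in aged mice. In the cerebellum they were 1.98, 1.74, 2.03 and 1.93 in young and 2.52, 2.45, 2.43 and 2.93 in aged mice. The aged arrays stood above the young ones without overlap, and the rise was 0.70 ± 0.14 in the cortex (adjusted p = 0.00157) and 0.66 ± 0.14 in the cerebellum (adjusted p = 0.00115). Ordered by mean over the 10 groups, the 8 aged groups of *Anxa2* ran from 2.58 to 2.82, with no step between neighbours beyond their SD. The step from the lowest aged group to the young cortex, 0.50, was the only one beyond it.

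*Anxa3* encodes annexin A3, a member that is abundant in myeloid cells. In the cerebellum its levels were -1.06, -1.32, -1.16 and -1.27 in young and -0.22, -0.23, -0.16 and 0.12 in aged mice. This was a rise of 1.08 ± 0.15 (adjusted p = 6.78e-06), 2.11-fold, with no overlap. In the cortex the levels were -0.46, -0.68, -0.56 and -0.37 against 0.018, 0.19, 0.090 and -0.20. The groups did not overlap there either, but the difference of 0.54 ± 0.15 passed the p threshold (adjusted p = 0.0388) and not the fold threshold. The difference between the regions in this effect, -0.54 ± 0.22, did not pass the interaction test (adjusted p = 0.284).

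*Anxa4* encodes annexin A4, known from secretory epithelia. In the cerebellum its levels were -0.79, -0.98, -0.82 and -0.80 in young mice and -0.0035, 0.014, 0.064 and 0.19 in aged mice, a rise of 0.91 ± 0.25 (adjusted p = 0.0142). In the cortex they were -1.17, -1.05, 0.97 and -1.02 in young mice and -0.26, -0.021, -0.22 and -0.76 in aged mice. The third young array stood far above the other young arrays, and the difference with it was 0.25 ± 0.25 (adjusted p = 0.734). Without this array *Anxa4* was higher in the aged cortex by 0.76 ± 0.13 (adjusted p = 0.000294) and was called. Choroid plexus markers averaged 2.14 on this array, beside 2.34, 2.01 and -1.83 on the other young cortical arrays, and their part was not tested. The effect of age on *Anxa4* was not shown to differ between regions (difference -0.66 ± 0.35, adjusted p = 0.488).

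*Anxa11* encodes annexin A11, which tethers RNA granules to lysosomes and binds calcium-sensing partners such as Pdcd6. In the cerebellum its levels were 0.50, 0.23, 0.69 and 0.95 in young and 1.13, 1.37, 1.27 and 1.19 in aged mice, a rise of 0.65 ± 0.12 without overlap, and without the second young array the difference was 0.52 and under the fold threshold. In the cortex the difference was 0.15 ± 0.12 (adjusted p = 0.637). The interaction of -0.50 ± 0.17 did not pass after adjustment (adjusted p = 0.156). The other tested annexins changed less: both *Anxa7* probes had higher values in aged mice without overlap, by 0.26 and 0.29 in the cortex (adjusted p = 0.0388 and 0.0526) and 0.32 and 0.28 in the cerebellum (adjusted p = 0.00385 and 0.0331), under the fold threshold. *Anxa5* differed by 0.30 and 0.28 (adjusted p = 0.120 and 0.0910). *Anxa6*, whose protein has a duplicated core, differed by -0.15 and -0.14 and did not pass the test (adjusted p = 0.608 and 0.560).

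**Figure D2:**
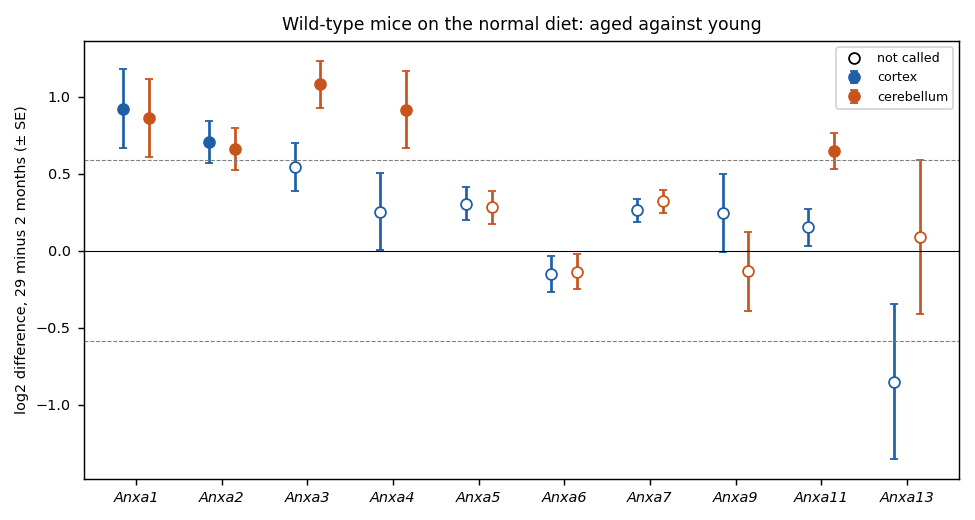
Log2 difference ± SE between aged controls and young mice (y axis) for the 10 annexin genes (x axis), in the cortex (blue) and the cerebellum (orange), with filled points for called genes and dashed lines at a fold change of 1.5. *Anxa1* and *Anxa2* are called in both regions, and *Anxa3*, *Anxa4* and *Anxa11* in the cerebellum. *Anxa9* and *Anxa13* were too dim to be tested in either region.

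Partners of the annexins were followed as a list of 20 genes, of which 17 were tested. In the aged cortex 3 rose: *Ahnak*, a large scaffold bound by the Anxa2 complex, by 0.81 ± 0.10, and the calcium-binding proteins *S100a4* and *S100a6*, by 1.24 ± 0.26 and 0.70 ± 0.13. In the aged cerebellum 4 rose: *Ahnak* by 0.77 ± 0.10, *S100a4* by 1.29 ± 0.26, the phagocytic receptor *Mertk* by 0.82 ± 0.17 and its bridging ligand *Pros1* by 0.80 ± 0.09. None was called lower. Of all tested probes, 1.59% were called higher in the aged cortex and 3.99% in the aged cerebellum. *S100a10*, the light chain of the Anxa2 complex, did not follow *Anxa2*: it differed by 0.045 ± 0.13 in the cortex (adjusted p = 0.932) and by -0.45 ± 0.13 in the cerebellum (adjusted p = 0.0165), the latter under the fold threshold. The median difference over the list was 0.24 in the cortex and 0.13 in the cerebellum, against -0.025 and -0.010 over all tested probes. The receptors *Fpr1* and *Fpr2* were near background and were not tested in either region.

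Markers of other cells moved with age beside these genes. Of 7 microglial markers, 5 rose in the aged cerebellum (median 0.84), where their mean level ran from 0.25 to 0.77 in young and from 1.56 to 1.68 in aged mice. In the cortex 1 of 7 rose, *Cd68* by 0.93, and the mean ran from 2.14 to 2.37 in young and from 2.16 to 2.51 in aged mice. Of 5 astrocyte markers 1 rose in each region, *Gfap* by 1.51 in the cortex and 1.87 in the cerebellum, with a mean level of 3.46 to 3.61 against 3.77 to 4.08 and of 4.36 to 4.57 against 4.80 to 5.05. Red cell markers were higher in aged mice, by 2.39 to 2.75 in the cortex (0 of 3 called, with 2 tested) and 2.48 to 2.67 in the cerebellum (2 of 3). Their mean ran from -3.70 to -2.14 in young and from -0.91 to 0.54 in aged cortex, and from -1.25 to 0.04 and 0.72 to 3.58 in the cerebellum. Choroid plexus markers fell in the aged cerebellum (2 of 6, median -1.43), from a mean of -0.54 to 3.21 in young to -1.81 to -1.22 in aged mice. Of 4 endothelial and 5 meningeal markers 0 were called in either region by limma. On each array 6 or 7 of the 7 microglial markers and 2 or 3 of the 3 red cell markers were well above background. Their part in the annexin differences was not tested.

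Cortex and cerebellum of the same wild-type groups differed most in *Anxa11*. At 2 months 3 of 10 tested annexin probes were called, where 38.4% of all tested probes were called, and at 29 months 2 of 10, where 33.6% were. All these calls were higher in the cortex, as were 19.1% and 15.8% of all tested probes. The regions did not overlap for 5 of 10 annexin probes at either age, against 58.1% and 56.4% of all. Among the 17 partners tested, 4 were called higher and 2 lower in the cortex at 2 months, and 5 higher and 2 lower at 29 months. *Anxa11* levels were 2.55, 2.44, 2.36 and 2.62 in the young cortex against the cerebellar values given above, a difference of 1.90 ± 0.12 (3.73-fold, adjusted p = 2.75e-15). At 29 months they were 2.46, 2.85, 2.62 and 2.64 in the cortex, a difference of 1.40 ± 0.12 (2.65-fold, adjusted p = 6.21e-12). Every cortical array of every group stood above every cerebellar array, and the smallest cortical mean exceeded the largest cerebellar mean by 1.25. The dimmer *Anxa11* probe was not well above background on any cerebellar array of these groups. It was so on 3 of 4 young and 2 of 4 aged cortical arrays, and was therefore not tested between regions. With cerebellar values set no lower than their array's lowest level well above background, the cortical mean was 2.25-fold higher in young and 1.82-fold higher in aged mice. That mean includes cortical arrays not well above background, so these folds are not lower bounds.

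*Anxa3* was 1.61-fold higher in the young cortex than in the young cerebellum (0.68 ± 0.15, adjusted p = 0.000296), and in aged mice the difference was 0.15 ± 0.15 (adjusted p = 0.432). *Anxa7*, whose protein was named synexin for its part in the fusion of secretory granules, gave unequal values by probe. The dimmer probe was higher in the cortex by 0.84 ± 0.09 at 2 months and 0.85 ± 0.09 at 29 months and was called, and the brighter by 0.32 ± 0.07 and 0.26 ± 0.07, under the fold threshold. *Anxa5*, which binds phosphatidylserine exposed on dying cells, was lower in the cortex by -0.41 ± 0.11 and -0.39 ± 0.11 (adjusted p = 0.00135 and 0.00258), also under the fold threshold. Of 7 microglial markers, 6 were called higher in the cortex at 2 months (median 2.01), 4 at 29 months (median 0.96), and 0 lower. Of 5 astrocyte markers, 3 were called lower at each age (medians -1.20 and -0.79) and 0 higher. Of 5 meningeal markers, 3 were called lower and 1 higher at each age. Of 6 choroid plexus markers, 0 were called higher and 1 lower at 2 months, and 4 higher and 1 lower at 29 months (medians 1.01 and 2.54). Of 3 red cell markers, 2 were called lower at 2 months and 3 at 29 months (medians -2.14 and -2.34), and 0 higher. The part of these markers was not tested. Slide and region cannot be told apart. The tests took the arrays of both regions as independent, though the labels do not say whether they share mice.

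The rule for likeness named, for the annexin called most often (with ties, the one of higher signal) and for *Anxa13*, the genes with the smallest root mean square difference of centred group means over the 10 groups. For *Anxa11*, called in 3 comparisons as was *Anxa1* and of higher signal, these were a pair of long non-coding RNA probes on chromosome 14 (0.0517 and 0.0521) and *Gpc5*, a glypican (0.0932), where the group means of *Anxa11* itself ran from -1.25 to 1.13 around their centre. For *Anxa13* they were *BC030476* (0.361), *Wfdc13* (0.362) and an unnamed probe (0.363), against a range of -1.71 to 1.45. The group means of *Anxa11* were split mainly by region, with a step of 1.25 between the lowest cortical and the highest cerebellar mean. *Anxa11* lies on chromosome 14 too, as do the probes of the closest pair. The part of the region and of the shared chromosome in the likeness was not tested. For *Anxa13* the likeness rests on values near background.

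The effect of the genotype was read from deficient *Ttpa*-/- against deficient wild type. In the cerebellum 1 of 11 tested annexin probes was called, where 4.94% of all tested probes were called (1.92% lower), and in the cortex 0 of 12, where 3.07% were (limma, 2 annexin probes at an unadjusted p under 0.05, and 0 by the methods' t-test). In the cerebellum the groups did not overlap for 2 of 11 annexin probes, against 13.5% of all. *Anxa1* was lower in the *Ttpa*-/- cerebellum: its levels were -0.16, -0.68, -0.35 and -0.34, against 0.28, 1.40, -0.14 and 0.032 in the wild type. The groups did not overlap, though the lowest wild-type and the highest mutant arrays were adjacent, and the difference was -0.77 ± 0.26 (adjusted p = 0.0430). Without the wild-type array at 1.40 it was -0.44 and was not called (adjusted p = 0.251), and the call was lost for 5 of the 8 arrays left out in turn. The dimmer *Anxa1* probe differed by -0.59 and was not called. Against aged controls the brighter probe differed in the cerebellum by -0.19 in deficient and by 0.0097 in supplemented mutants, without a call. In the cortex *Anxa1* levels were -0.85, -0.45, -0.44 and -0.055 against 0.67, 0.52, 0.51 and -0.58, a difference of -0.73 ± 0.26 that did not pass (adjusted p = 0.0557). Without the wild-type array at -0.58 it was -1.02 and was called (adjusted p = 0.00564), and without the mutant array at -0.055 it was -0.86 and was called (adjusted p = 0.0293). The effect on *Anxa1* was not shown to differ between regions (0.043 ± 0.36, adjusted p = 0.963). Of the 17 partners tested 0 were called in either region. The median over the 10 genes was -0.048 in the cerebellum and -0.010 in the cortex, against -0.011 and -0.0069 over all tested probes.

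*Anxa3* was lower in the *Ttpa*-/- cerebellum in each comparison with wild type made there, under the fold threshold each time. Its levels were -0.54, -0.47, -0.50 and -0.99 in deficient and -0.092, -0.74, -0.85 and -0.75 in supplemented mutants, against -0.27, -0.014, -0.020 and 0.030 in deficient wild type. The differences were -0.56 ± 0.15 between the genotypes on the deficient diet (adjusted p = 0.0157), -0.50 ± 0.15 between deficient mutants and aged controls (adjusted p = 0.0290), and -0.48 ± 0.15 between supplemented mutants and the same controls (adjusted p = 0.0336). The last 2 share their control arrays, and the first 2 their mutant arrays. One supplemented array, at -0.092, lay among the wild-type arrays. In the cortex the same 3 differences of *Anxa3* were -0.23, -0.27 and -0.18, with adjusted p of 0.342, 0.235 and 0.894. In the cerebellum 1 of 7 microglial markers was called between the genotypes on the deficient diet, *P2ry12*, higher by 0.60. Their median difference was -0.085, and their mean level ran from 1.31 to 1.48 in the mutant and from 1.35 to 1.55 in the wild type. Between deficient mutants and aged controls, where that mean ran from 1.56 to 1.68 in the controls, *Aif1* of the 7 microglial markers was lower by -0.59, *Gfap* of 5 astrocyte markers by -0.64, and *Mag* and *Mbp* of 5 oligodendrocyte markers by -0.66 and -0.62. Between supplemented mutants and aged controls the median differences were -0.033 for microglial, -0.036 for astrocyte and -0.23 for oligodendrocyte markers, with a microglial mean of 1.45 to 1.64 in the mutants. The part of these markers was not tested.

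The effect of diet alone was read from deficient wild type against aged controls. By limma 0 of 11 tested annexin probes were called in either region, where 0.223% of all tested probes were called in the cortex and 1.28% in the cerebellum. At an unadjusted p under 0.05 there were 2 and 5 annexin probes, and the methods' t-test without adjustment called 1 in each region. In the cerebellum 3 of 11 showed no overlap, against 16.8% of all. *Anxa5* was lower in the deficient cerebellum, with levels of 3.07, 3.36, 3.49 and 3.53 against 3.70, 3.74, 3.83 and 3.86. The groups did not overlap, and the difference of -0.42 ± 0.11 passed the p threshold (adjusted p = 0.0242) but stayed under the fold threshold. *Anxa6* differed there by -0.32 ± 0.12 (adjusted p = 0.0922), also without overlap. All 5 oligodendrocyte markers had lower values there too (median -0.55, from -0.82 to -0.41), and 1, *Mag*, was called. Their mean over the same arrays, in the order given for *Anxa5*, was 3.06, 3.14, 3.51 and 3.79 against 3.84, 3.80, 3.99 and 4.10, without overlap, and their part was not tested. The *Anxa1* mean was higher by 0.58 ± 0.26 in the cerebellum (adjusted p = 0.186), with the array at 1.40 the highest of all 40.

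Supplementation was read from supplemented against deficient *Ttpa*-/- mice. In the cortex 0 of 12 tested annexin probes were called by limma, where 3.31% of all tested probes were, with 3 at an unadjusted p under 0.05 and 1 by the methods' t-test. That one was *Anxa13*, which entered the test through the deficient mutants alone, the arrays on which the family was chosen, so it supports nothing. In the cerebellum 0 of 11 were called, where 0.343% were, with 1 at an unadjusted p under 0.05 and 0 by the t-test. The groups did not overlap for 4 of 12 in the cortex, against 19% of all. In the cortex *Anxa6* was lower in the supplemented mutants, at 3.76, 3.70, 3.48 and 3.77 against 4.20, 4.07, 4.08 and 3.76, by -0.35 ± 0.12 (adjusted p = 0.0382), under the fold threshold and with overlap at a single deficient array. Oligodendrocyte markers had higher values in the supplemented mutants (5 of 5, median 0.47), with means of 3.72 to 4.21 against 3.31 to 3.63. Of 5 meningeal markers 1 was called higher, *Lum* by 0.80, and red cell markers differed by a median of 1.13, with means of 1.56 to 4.89 against -0.73 to 4.53. Their part was not tested. *Anxa1* levels were 0.038, 0.17, 0.13 and 0.0061 against -0.85, -0.45, -0.44 and -0.055, apart without overlap by 0.54 ± 0.26, and did not pass (adjusted p = 0.165).

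Against aged controls, supplemented mutants gave 0 of 11 calls in the cortex, where 0.092% of all tested probes were called, and 0 of 11 in the cerebellum, where 4.91% were. At an unadjusted p under 0.05 limma gave 0 and 4 annexin probes, and the methods' t-test without adjustment called 1 in each region. Deficient mutants gave 0 of 10 calls in the cerebellum, where 4.46% of all were called, with 4 annexin probes at an unadjusted p under 0.05 and 0 by the t-test. In the cerebellum the groups did not overlap for 3 of 11 and 3 of 10 annexin probes, against 21.3% and 17% of all. Supplemented mutants against deficient wild type in the cortex, which shared a slide, gave 0 of 11 calls, where 0.0316% of all were called, with 2 at an unadjusted p under 0.05 and 0 by the t-test.

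The differences of *Anxa11* between mutants and aged controls had opposite signs in the regions. In the cerebellum its levels were 1.06, 1.07, 0.71 and 0.82 in deficient and 0.69 to 1.02 in supplemented mutants, all below the aged controls. The differences were -0.32 ± 0.12 (adjusted p = 0.0676) and -0.33 ± 0.12 (adjusted p = 0.0570). In the cortex its levels were 3.19, 2.90, 2.93 and 2.86 in deficient mutants, all above the aged controls by a mean of 0.33 ± 0.12, and 2.88, 2.69, 2.81 and 2.81 in supplemented mutants, with overlap. The nearest control array stood at 2.85 in the cortex and at 1.13 in the cerebellum. The cortical minus the cerebellar difference was 0.65 ± 0.17 for deficient mutants and 0.49 ± 0.17 for supplemented mutants (adjusted p = 0.153), and these differences share the control arrays. The deficient mutants' cortical side is the contrast by which the family was chosen. The dimmer *Anxa11* probe was well above background on 0 of 4 cerebellar arrays of aged controls and gives no second reading. Tests of a difference between regions on annexin probes numbered 72 over 6 contrasts, and 1 had an adjusted p under 0.05, that of *Anxa11* in deficient mutants against aged controls. In these contrasts 1.83% of all tested probes passed for age, 0.0126% for diet in the wild type, 1.14% for genotype on the deficient diet, 0.0567% for supplementation of mutants, 7.04% for deficient and 1.19% for supplemented mutants against aged controls. The last pair was added after the values had been seen.

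**Figure D3:**
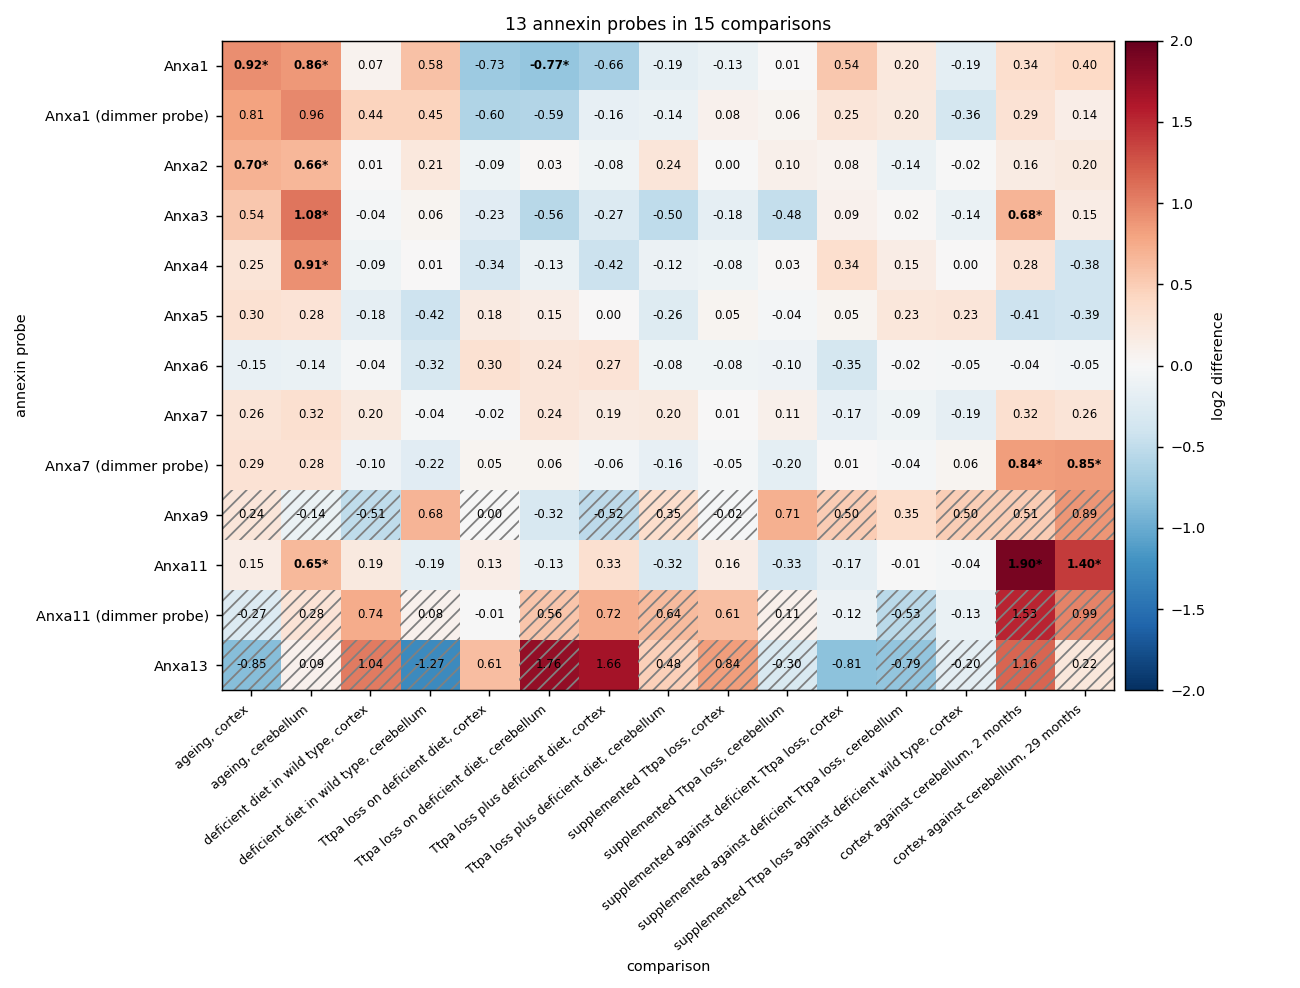
Log2 differences of the 13 annexin probes (y axis) in 15 comparisons (x axis), coloured from -2 (blue) to 2 (red), with the value in each cell, an asterisk for a call and hatching where the probe was too dim to be tested. The calls lie in the ageing and region columns, with 1 for *Anxa1* in the *Ttpa*-/- columns, and the *Anxa13* value of 1.66 is left unmarked because that contrast chose the family.

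*Anxa13* encodes annexin A13, known from epithelia of the gut and kidney. In the cortex its probe was well above background on 4 of 4 arrays of deficient *Ttpa*-/- mice, 3 of 4 of deficient wild type, and 1 of 4 in each of the remaining cortical groups. Its cortical levels were -3.61, -3.60, -3.84 and -3.98 in deficient *Ttpa*-/- mice and -6.12, -4.86, -6.50 and -4.17 in aged controls. The mutant arrays all stood above the controls, by as little as 0.19 for the nearest pair, and the fitted difference was 1.66 ± 0.50, of which the control side rests on 3 of 4 arrays not well above background. This is the contrast by which the family was chosen. The count of calls in it, 1 of 12 tested annexin probes where 4.75% of all were called (3.14% higher), follows from that choice and nothing is read from it. The groups did not overlap for 3 of 12, against 23.4% of all. The same contrast after normexp background correction gave 0.502, under the fold threshold.

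The remaining cortical groups lay between these. Levels of *Anxa13* were -3.44, -4.42, -5.33 and -4.29 in deficient wild type, -4.54, -4.47, -4.69 and -4.60 in supplemented *Ttpa*-/- mice and -4.84, -4.22, -5.16 and -4.04 in young mice. The wild-type deficient arrays spanned the *Ttpa*-/- deficient ones, and the supplemented arrays were below all of the latter, by -0.81 ± 0.50 in the fit. In the young cortex the mean of -4.56 was above that of aged mice on the same diet, -5.42, with overlap. In the order of the 10 group means, the steps from the highest group to the next, 0.61, and from the next-lowest to the lowest, 0.97, were beyond the SD of the neighbours, and the other 7 were not.

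In the cerebellum *Anxa13* was not well above background on any array of the 3 wild-type groups, and on 1 of 4 arrays of each *Ttpa*-/- group. Its levels there ran from -7.36 to -4.27, and no fold change is given between groups without a measured level. *Anxa9* was well above background on 12 of 20 cortical and 14 of 20 cerebellar arrays. Its levels were -4.08, -3.79, -4.06 and -4.18 in the cerebellum of deficient wild type and -3.90, -4.23, -3.95 and -3.91 in supplemented *Ttpa*-/- mice. They were -4.47, -4.63, -4.35 and -5.38 in aged controls. Both former groups were above the latter without overlap, by 0.68 ± 0.26 (adjusted p = 0.116) and 0.71 ± 0.26 (adjusted p = 0.0577), and neither passed. The probe entered these tests through the groups where it was higher, with 4 of 4 arrays well above background against 3 of 4 in the controls, so the filter favoured this direction.

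**Figure D4:**
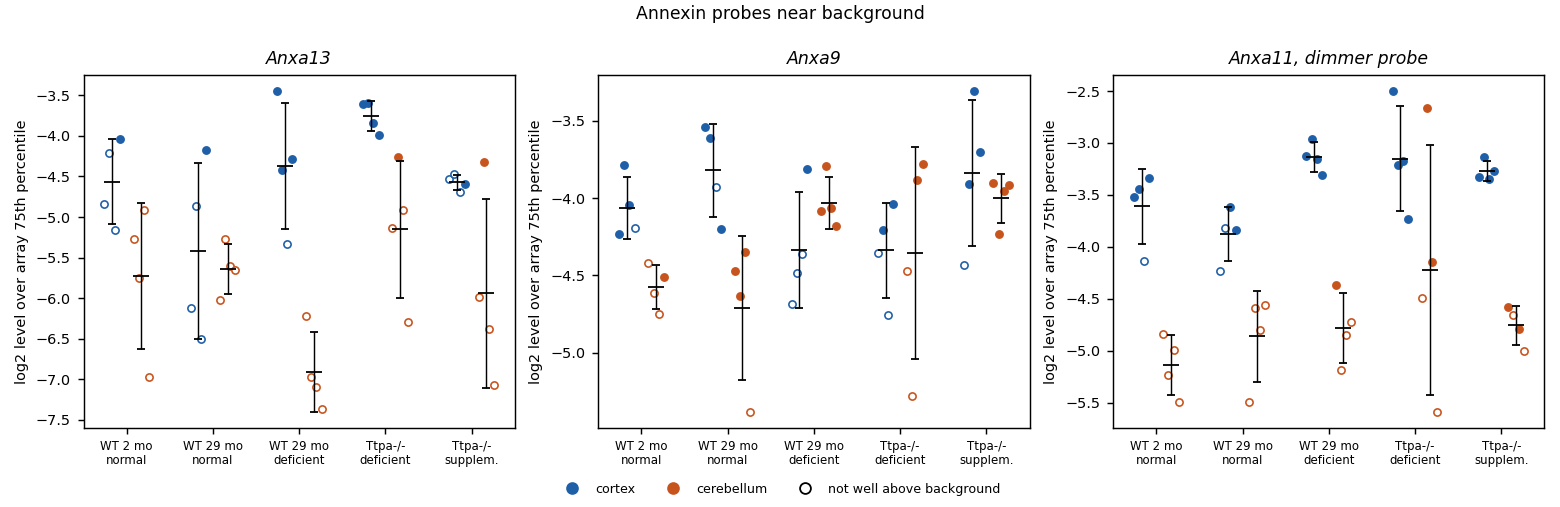
Log2 level relative to the array's 75th percentile (y axis) by group (x axis) for the 3 annexin probes near background, with filled points for arrays well above background, open points for the others, and bars for the mean ± SD of the 4 arrays. *Anxa13* is filled on all 4 cortical arrays of deficient *Ttpa*-/- mice and on 1 cerebellar array of each *Ttpa*-/- group.

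Genes with a pair of probes allowed a second reading. The *Anxa1* probes differed in size by at most 0.50 over the 15 comparisons and had opposite signs in 1, the supplemented *Ttpa*-/- cortex against aged controls (-0.13 and 0.085). The *Anxa7* probes moved alike with age, and between regions in the same direction with unequal size. They had opposite signs in several comparisons of diet or genotype, such as deficient mutants against aged controls in the cerebellum (0.20 brighter, -0.16 dimmer). The dimmer *Anxa11* probe, near background, followed the brighter in both region comparisons and differed from it by up to 0.96 elsewhere. The *Anxa11* probes had opposite signs in several of the latter, cortical ageing among them (0.15 brighter, -0.27 dimmer). In deficient wild type the dimmer *Anxa11* probe was higher in the cortex by 0.74 ± 0.34, without overlap and without passing (adjusted p = 0.285). The brighter probe gave 0.19 ± 0.12 there. The dimmer probe entered this test through the deficient group, with 4 of 4 arrays well above background against 2 of 4 in the controls. The filter thus favoured this direction. These comparisons share arrays, so the points are not independent.

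**Figure D5:**
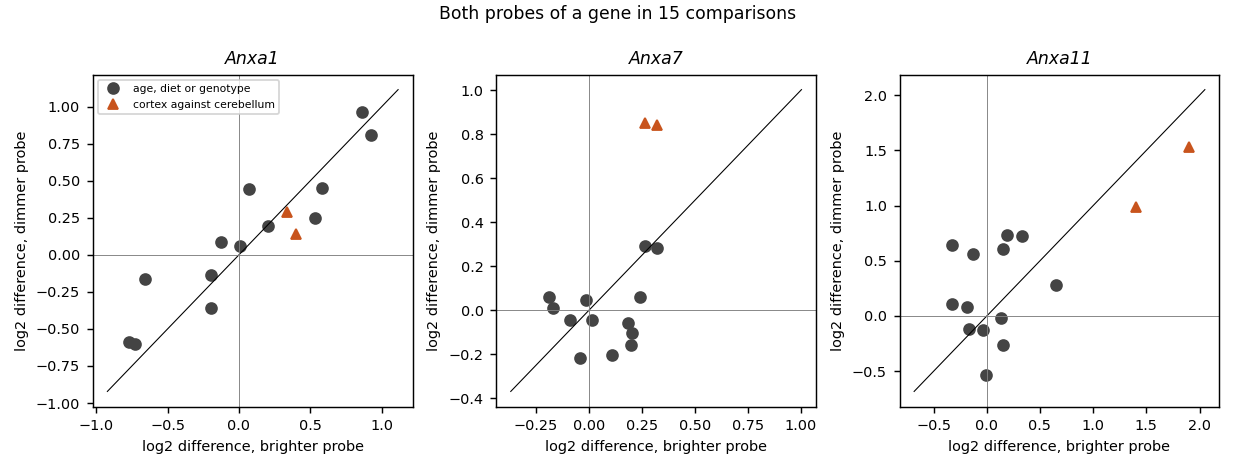
Log2 difference by the dimmer probe (y axis) against that by the brighter probe (x axis) for *Anxa1*, *Anxa7* and *Anxa11* in 15 comparisons, with triangles for cortex against cerebellum and a line of equal values. The *Anxa1* points lie along the line, and the *Anxa7* triangles lie above it, at 0.84 and 0.85 against 0.32 and 0.26.

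The arrays also carry *Anxa8* and *Anxa10*, which are outside the 10 genes. Both *Anxa8* probes were well above background on 40 of 40 arrays. The brighter of them was higher in the cortex than in the cerebellum by 0.99 ± 0.26 at 2 months (adjusted p = 0.00142) and 1.39 ± 0.26 at 29 months (adjusted p = 3.09e-05). *Anxa10*, known from stomach, was well above background on 0 of 40 arrays.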

How the data were processed

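Expression was measured on 40 arrays, grouped by the deposited labels. The authors deposited each array's scanner table, written by Feature Extraction 10.7.3.1 per the file headers. Its processed signal is an intensity after background subtraction, not scaled between arrays. Log2 values that the authors deposited as well match the scaled log2 intensity centred per probe to a median difference of 0.00085. The columns of flags and of calls above background were deposited as a score of 0 or 1. The main analysis used the array files, and the deposited log2 values served for the match above and as an alternative below.

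With R 4.3.3, flagged spots (95 to 148 per array) were removed, spots of a probe were averaged, 92 of 55681 probes lacking an unflagged spot on some array were dropped, and each array's log2 75th percentile was subtracted. All 40 arrays entered 1 limma 3.58.1 model with group means and no block. Benjamini-Hochberg adjustment ran over probes above background on 4 of 4 arrays in a compared group. A gene's brightest probe stands for it. All 10 annexins and every partner called with age are named, and partners called between regions are given as counts. The model was tested on simulated data. Members and lists were chosen with earlier results of these data known. The number of arrays limits the precision. The study's methods give 4 mice per group. Alternatives were scaling to the median, quantile normalization, normexp (offset 50), the deposited log2 values, no filter, a replicate block, array weights, compared groups alone, the methods' t-test, and omission of each array.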

Additional observations from a re-analysis of the deposited data

Results flagged for a closer look

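In a group of 4 arrays, an array was singled out where its gap to the nearest other, divided by the group's range, was above 0.829. Among 130 combinations of an annexin probe and a group, 13 were, and chance flags about 1 in 20 groups. The widest gap was *Anxa4* in the young cortex, with replicate 3 at 0.97 and the others from -1.17 to -1.02.

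In deficient wild type, replicate 4 of the cortex was low for *Anxa1* (-0.58 against 0.51 to 0.67) and *Anxa4* (-0.55 against -0.36 to -0.34). In the cerebellum of these mice, replicate 2 was high for *Anxa2* (3.02), replicate 1 low for *Anxa3* (-0.27) and replicate 4 high for *Anxa7* (1.03). In the cerebellum of aged controls, replicate 4 was high for *Anxa2* (2.93) and replicate 1 low for *Anxa6* (3.71).

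In the cerebellum of *Ttpa*-/- mice, replicate 4 on the deficient diet was low for *Anxa3* (-0.99). On the supplemented diet, replicate 1 was high for *Anxa3* (-0.092), and replicate 2 was high for *Anxa5* (3.96) and *Anxa7* (1.12) and low for *Anxa9* (-4.23).

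For *Anxa11*, the difference between deficient *Ttpa*-/- mice and aged controls in the cortex exceeded that in the cerebellum by 0.65 ± 0.17 (limma, adjusted p = 0.0166), which singled it out among 72 such tests on annexin probes. *Anxa11* stood above every control array on 4 of 4 mutant arrays in the cortex and below every one on 4 of 4 in the cerebellum. The nearest mutant and control arrays were close, at 2.86 and 2.85 in the cortex and 1.07 and 1.13 in the cerebellum. Such groups did not overlap for 23.4% and 17% of all tested probes. The test was added after the values had been seen, and its cortical contrast is the one by which the family was chosen. Over 23 other settings the value ran from 0.58 to 0.73 and the adjusted p from 0.00438 to 0.145, with the threshold missed in 1, scaling to the median. The dimmer *Anxa11* probe was well above background on 0 of 4 cerebellar arrays of aged controls and gives no second reading. The slide differs between the groups of both regions and cannot be told apart from the condition.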

How the results depend on the processing

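Of 13 calls outside the contrast by which the family was chosen, 9 held under all 10 alternatives that keep every array, and 0 changed sign. *Anxa1* in the *Ttpa*-/- cerebellum held in 4 of 10 and in ageing in 6 (cortex) and 8 (cerebellum), and *Anxa11* in cerebellar ageing in 7.

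Counts of called annexin probes moved as follows. Array weights gave 0 for *Ttpa* loss on the deficient diet in the cerebellum, 2 in the cortex, 3 for *Ttpa* loss plus deficient diet in the cortex, 1 for the deficient diet in wild-type cortex and 1 for supplemented *Ttpa* loss in the cerebellum. The compared groups alone gave 0 for *Ttpa* loss in the cerebellum, 0 for *Ttpa* loss plus deficient diet in the cortex and 1 for cortical ageing. Scaling to the median gave 0 for *Ttpa* loss in the cerebellum, 3 for cerebellar ageing, 1 for cortical ageing and 1 for the deficient diet in the cerebellum, *Anxa5* at -0.60, where it shifts the median of all probes by -0.18. The methods' t-test without adjustment gave 0 for *Ttpa* loss in the cerebellum, 3 for *Ttpa* loss plus deficient diet in the cortex, and 1 each for the deficient diet in both regions, supplemented *Ttpa* loss in both regions and supplementation in the mutant cortex. With Benjamini-Hochberg it gave 0 for *Ttpa* loss in the cerebellum, 0 for *Ttpa* loss plus deficient diet in the cortex, 1 for cortical ageing and 1 for supplementation in the mutant cortex. Without the filter on dim probes there was 1 for cortical ageing and 4 for the regions at 29 months. Normexp gave 1 for *Ttpa* loss in the cortex, and quantile normalization 1 for supplemented *Ttpa* loss in the cerebellum. The cause of these moves was not tested.

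Leaving out 1 array gave 1 to 3 calls for cortical ageing, 3 to 5 for cerebellar ageing, 0 to 2 for *Ttpa* loss in the cerebellum, 0 to 1 in the cortex, 0 to 2 for *Ttpa* loss plus deficient diet in the cortex, 0 to 1 for supplemented *Ttpa* loss in the cerebellum, 3 to 4 for the regions at 2 months, 2 to 3 at 29 months, and 0 in the other comparisons. The replicate number as a block changed the count of cerebellar ageing from 5 to 6 and no other count beyond 1.5 times. Same-numbered arrays of cortex and cerebellum in a condition correlated at -0.10 to 0.44 (mean 0.16), and differently numbered ones at -0.34 to 0.37 (mean -0.054). The labels do not say whether same-numbered arrays came from the same mouse. The numbers were not taken as pairs because not every pair was over 0.1, a rule that cannot exclude shared mice. The tests between regions took the arrays as independent. The slide as a block was not run, since each group lies on 1 slide.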
